A study of Homo sapiens with 4 samples.

Results

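The genes described here encode golgins, other structural proteins of the Golgi apparatus and the conserved oligomeric Golgi (COG) complex. They are 33 genes listed by symbol, out of 58735 in the deposited table, with GOLM1, the gene targeted in the study, left out. The list was chosen with earlier results of these data known. All 33 were found and all passed the filter on low counts, so none was lost before the test. RNA-seq was made from cells of SUP-M2, an established human line of ALK-positive anaplastic large cell lymphoma, a T cell lymphoma. The 2 control libraries, labelled shscramble, carried a scrambled short hairpin RNA, and the 2 libraries labelled shGOLM1 carried a hairpin against GOLM1, although their genotype label reads knockout. Both groups are the same line, and the labels give neither the hairpin sequence, nor whether both shGOLM1 libraries share one, nor the time after transduction. They also do not say that replicates were separate cultures, so the spread behind each p-value may be no more than technical.

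The Golgi apparatus is a stack of flattened membranes in which newly made proteins are glycosylated and sorted. Golgins are long coiled-coil proteins anchored on particular faces of the stack, where they catch incoming vesicles, and the GORASP proteins hold cisternae together. The COG complex, built of lobe A (COG1 to COG4) and lobe B (COG5 to COG8), tethers the vesicles that return glycosylation enzymes to earlier cisternae. Inherited loss of COG subunits or of TMEM165 causes congenital disorders of glycosylation. GOLM1 itself encodes a membrane protein of the Golgi.

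GOLM1 was at 212 and 213 CPM (the usual count per unit of library size, with library totals scaled by TMM, a factor that makes the bulk of genes comparable) with the scrambled hairpin, against 69.6 and 69.5 CPM with the GOLM1 hairpin, replicates 1 and 2. Its log2 fold change was -1.61 (SE 0.27, adjusted p = 0.42, edgeR quasi-likelihood). Library totals ran from 27544171 to 31972153 counts. The shGOLM1 libraries stood far apart from each other, with a median gap of 0.95 in log2 CPM over the 14166 tested genes, against 0.15 between the shscramble libraries. The share of counts from mitochondrially encoded genes was 0.455% in shGOLM1 replicate 2, against 1.95% to 2.38% elsewhere, and the part of this difference in the results was not tested. All 7 markers of anaplastic large cell lymphoma, among them TNFRSF8 and ALK, were at 1 CPM or more in every library, with sums of 2685 to 2709 CPM in shscramble and of 4276 and 1551 CPM in shGOLM1 replicates 1 and 2. Among these 7, PRF1, which encodes perforin, had 95 and 90 counts in shscramble and 21530 and 3295 in shGOLM1. TNFRSF8 was lowest in shGOLM1 replicate 2, with 88.4 CPM, where the other libraries ranged from 539 to 634 CPM. ALK had 170 CPM in that library and 316 to 340 CPM elsewhere. GZMB had 20.4 CPM there and 86.3 to 149 CPM elsewhere. IRF4 and BATF3 were also lowest in that library, while PRF1 and STAT3 lay above both controls. In the T cell list, which summed to 209 to 215 CPM in shscramble and 348 to 480 CPM in shGOLM1, CD3G and CD8A had 0 counts throughout. CD4 made up most of each sum, at 182 and 180 CPM in shscramble and 307 and 380 CPM in shGOLM1. CD247 was at 29.4 and 24.8 against 35.1 and 87.6 CPM, while CD3D lay below the controls in replicate 1 and above them in replicate 2. Of 6 haematopoietic markers, ARHGDIB was at 0 counts in each control, against 1039 and 843 in shGOLM1, and LAPTM5 had 40 and 47 against 2587 and 1343. That list summed to 1141 to 1171 CPM in shscramble and 1590 to 1687 CPM in shGOLM1. The B cell, epithelial and mesenchymal lists each summed to at most 3.16 CPM in any library. Of 5 myeloid markers, CSF1R alone reached 1 CPM, and the list summed to 231 to 310 CPM over the libraries.

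Sequences around the start sites are shown for 4 members. ACBD3 and GOLGA3 were higher in both shGOLM1 libraries, GORASP2 was not separated between the groups, and COG8 was far below the controls in a single library. The first 3 hold ACGTGGC, the core of the Golgi apparatus stress response element, which the transcription factor TFE3 binds. Capitals mark those letters, or GCCACGT where the motif lies on the other strand. The sequences are from RefSeq on GRCh38.p14, run 5′ to 3′ on the strand of the gene, and cover 250 bases before to 50 bases after the start.
ACBD3 (chr1:226186692-226186991, minus strand): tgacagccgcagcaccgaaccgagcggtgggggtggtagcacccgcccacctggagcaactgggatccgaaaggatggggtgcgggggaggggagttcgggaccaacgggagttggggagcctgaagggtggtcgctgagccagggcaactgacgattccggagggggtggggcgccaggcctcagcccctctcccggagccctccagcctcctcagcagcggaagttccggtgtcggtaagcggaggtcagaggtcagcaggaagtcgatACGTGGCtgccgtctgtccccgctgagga
GOLGA3 (chr12:132828820-132829119, minus strand, one of 3 listed starts): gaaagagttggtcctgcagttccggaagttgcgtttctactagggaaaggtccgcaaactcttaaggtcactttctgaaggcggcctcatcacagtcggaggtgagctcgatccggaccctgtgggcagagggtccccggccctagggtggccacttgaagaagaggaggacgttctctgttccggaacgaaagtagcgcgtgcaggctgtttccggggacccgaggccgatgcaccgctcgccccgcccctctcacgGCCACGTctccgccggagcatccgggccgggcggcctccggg
GORASP2 (chr2:170929003-170929302, plus strand): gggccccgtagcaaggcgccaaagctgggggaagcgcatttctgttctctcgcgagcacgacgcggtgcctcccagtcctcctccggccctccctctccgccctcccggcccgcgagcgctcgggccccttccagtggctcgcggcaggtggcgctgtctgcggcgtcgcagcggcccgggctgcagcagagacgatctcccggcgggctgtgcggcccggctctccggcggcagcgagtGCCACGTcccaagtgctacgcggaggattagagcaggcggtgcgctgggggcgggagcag
COG8 (chr16:69339515-69339814, minus strand): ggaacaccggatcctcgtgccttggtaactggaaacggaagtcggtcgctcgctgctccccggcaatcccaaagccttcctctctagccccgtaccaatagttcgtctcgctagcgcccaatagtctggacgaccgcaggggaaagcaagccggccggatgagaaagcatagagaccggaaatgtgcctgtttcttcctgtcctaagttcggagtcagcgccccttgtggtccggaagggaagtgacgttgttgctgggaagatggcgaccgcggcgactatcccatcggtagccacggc

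RefSeq promoters were listed for 29 of the 33 genes. ACGTGGC on either strand stood in 6 of them (20.7%), namely ACBD3, COG3, GOLGA1, GOLGA3, GOLGA5 and GORASP2. Among tested genes with a listed promoter the share was 5.64%, or 535 of 9483. The first base of the motif lay at position 22 after the start in ACBD3, at 9 in GOLGA3 and at -10 in GORASP2. CACGTG, an E-box that shares the letters ACGTG with the first motif, stood in 3 members (CUX1, GOLIM4 and TMF1, 10.3%) and in 12.7% of tested genes. Of the 6 genes with ACGTGGC, 2 had both shGOLM1 libraries above both controls, 0 had them below and 4 overlapped, where all tested genes had 25.2% above and 26.5% below. Their median log2 fold change was 0.41, against 0.07 for the other 23 members with a listed promoter. A match describes these letters in this window only. TFE3 itself was at 79.8 and 78.1 CPM in shscramble against 62.4 and 189 CPM in shGOLM1, on either side of the controls, and its binding was not tested. The motifs were chosen with the values known. ACGTGGC belongs to an element of the Golgi stress response, so its higher share among Golgi genes is no independent finding. The shares were not tested against each other.

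No member passed edgeR's quasi-likelihood test with all 4 libraries at an adjusted p under 0.05, as was the case for all tested genes (0 of 14166, 0.0%). Adjusted p ran from 0.42 for ACBD3 to 0.997 for COG1. At an unadjusted p under 0.05 there was 1 member, ACBD3, against 11.8% of all tested genes. DESeq2 called 0 members, and 3.33% of all genes it tested, and limma-voom called 0 members and 0 genes. Members called were likewise 0 without the filter on low counts (0.759% of genes), with the replicate number as a block (1.43%) and without shscramble replicate 1 (0.139%) or 2 (0.126%). The authors' deposited table gives none of the 33 an adjusted p under 0.05, where 540 of 23642 genes are under it, and its lowest value for a member is 0.24, for ACBD3. The median log2 fold change was 0.14 over the members and 0.05 over all tested genes. The groups did not overlap for 18 members, where 51.7% of tested genes had no overlap. Both shGOLM1 libraries lay above both shscramble libraries for 11 members, where 25.2% of tested genes did so, and below both for 7 members, where 26.5% did so. The other 15 overlapped.

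**Figure D1:**
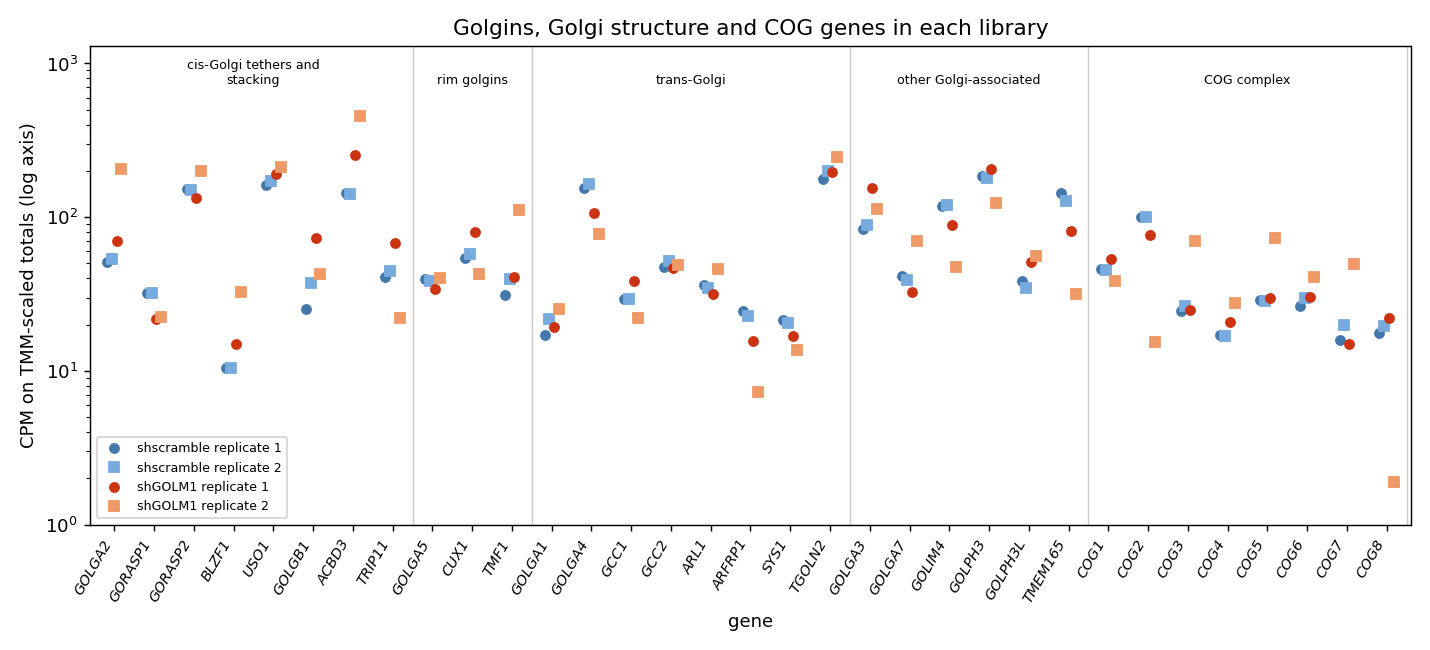
Level of each of the 33 genes in the 4 libraries, in CPM on TMM-scaled totals (log axis), with genes grouped by role and 1 point per library. The shscramble points lie farthest apart for GOLGB1 (25.4 and 37.1 CPM), while the shGOLM1 points of COG8 (22 and 1.89 CPM) and GOLGA2 (70.1 and 207 CPM) lie far apart.

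Between the shscramble libraries the members differed by a median of 0.09 in log2 CPM, with GOLGB1 the farthest apart at 0.55, and between the shGOLM1 libraries they differed by a median of 0.78. Each shGOLM1 library was therefore also compared alone with both shscramble libraries in edgeR. Such a fit takes the spread of the lone library to equal that of the controls, and it compares libraries, not conditions. Replicate 1 alone had 15 members called, where 44.5% of all genes were: 9 members called higher and 6 lower, where 20.4% and 24.1% of all genes tested were called in those directions. Replicate 2 alone had 30 members called, where 67.4% of all genes were: 17 called higher and 13 lower, where the shares of all genes were 33.3% and 34.1%. The members had a median of 39.1 CPM in shscramble and all tested genes a median of 19.5 CPM. The comparisons share their control libraries. Side by side, GOLGA2, BLZF1, GOLGB1, ACBD3, GOLGA3 and GOLPH3L were called higher in each. GORASP1, GOLGA4, ARFRP1, GOLIM4, TMEM165 and COG2 were called lower in each, while TRIP11, CUX1 and GCC1 were called higher in replicate 1 and lower in replicate 2. GOLGA5, GOLGA1 and GCC2 were called in neither.

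**Figure D2:**
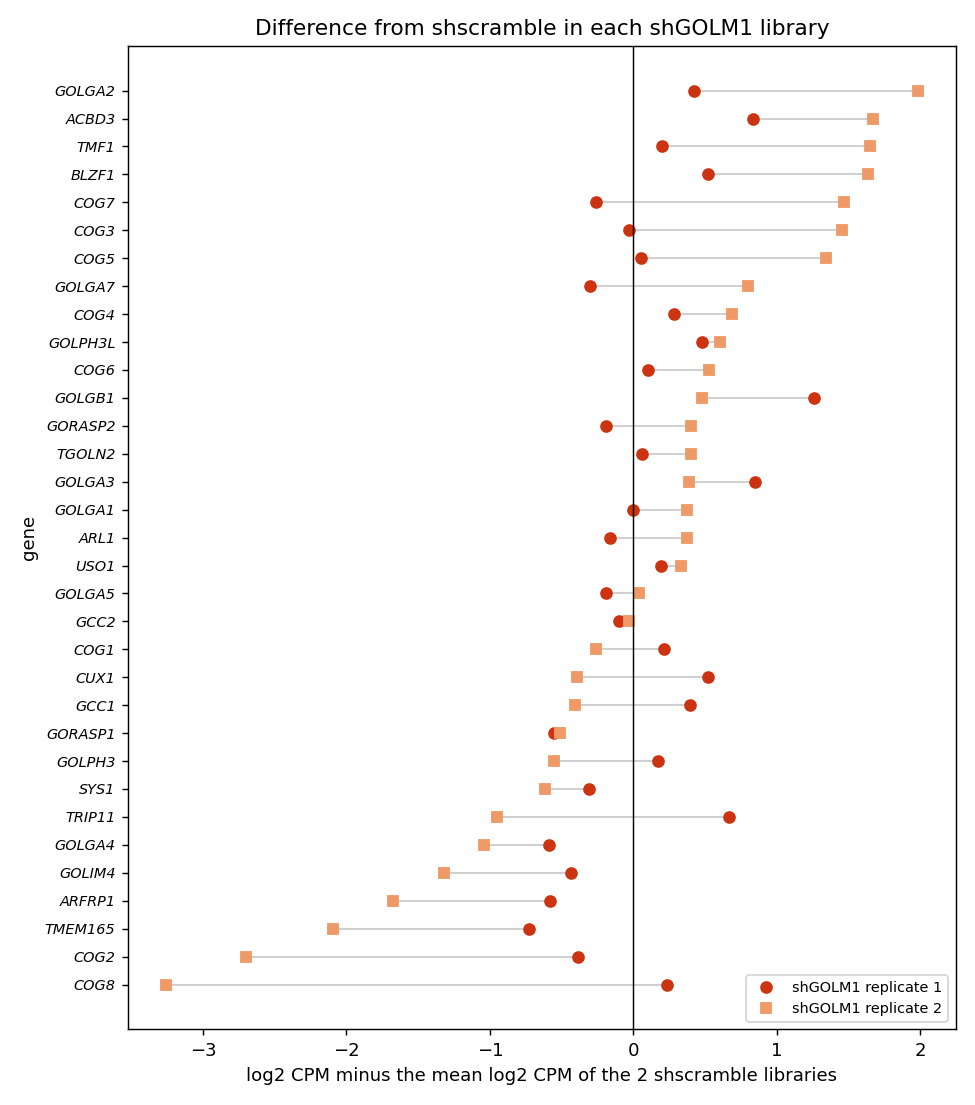
Difference of each shGOLM1 library from the mean of the 2 shscramble libraries, in log2 CPM, for the 33 genes ordered by replicate 2; a grey line joins the libraries of a gene. Points of replicate 2 spread from -3.26 (COG8) to 1.98 (GOLGA2) and those of replicate 1 from -0.73 (TMEM165) to 1.26 (GOLGB1).

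Among the 8 tethers and stacking proteins of the cis face, 5 were higher in both shGOLM1 libraries (25.2% of all tested genes) and 1 was lower (26.5%), with a median log2 fold change of 0.58. ACBD3 (chromosome 1, 226144679 to 226186730, GRCh38), which binds giantin and recruits a phosphatidylinositol kinase, was at 144 and 142 CPM in shscramble against 255 and 455 CPM in shGOLM1 replicates 1 and 2. It was thus 1.79-fold and 3.19-fold above the shscramble mean, with a log2 fold change of 1.31 (SE 0.40, adjusted p = 0.42). GOLGA2 (chromosome 9, 128255829 to 128275995), the golgin that docks vesicles and binds GORASP1, was at 50.9 and 53.4 CPM against 70.1 and 207 CPM, a log2 fold change of 1.41 (SE 0.59, adjusted p = 0.44). Most of the difference in GOLGA2 thus lay in replicate 2, which was 3.96-fold above the shscramble mean, against 1.34-fold in replicate 1. BLZF1, the golgin that binds GORASP2, was at 10.5 and 10.4 CPM against 15 and 32.7 CPM (log2 fold change 1.19, SE 0.50, adjusted p = 0.441). GOLGB1, which encodes giantin, was at 25.4 and 37.1 CPM against 73.5 and 42.9 CPM (log2 fold change 0.90, SE 0.42, adjusted p = 0.468). Unlike the 3 genes before it, GOLGB1 was higher in replicate 1 than in replicate 2, and it lay only just above the shscramble range in replicate 2. USO1, which tethers vesicles arriving from the endoplasmic reticulum, was at 161 and 173 CPM against 191 and 211 CPM (log2 fold change 0.27, SE 0.27, adjusted p = 0.695).

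The stacking proteins GORASP1 and GORASP2, which are paralogs, had different patterns across the libraries. GORASP1 was at 32.2 and 32.1 CPM in shscramble against 21.9 and 22.6 CPM in shGOLM1, so that the shGOLM1 libraries lay close together and below the controls (log2 fold change -0.53, SE 0.29, adjusted p = 0.499). GORASP2, which was at 152 and 151 CPM against 133 and 201 CPM, lay below the controls in replicate 1 and above them in replicate 2 (log2 fold change 0.14, SE 0.33, adjusted p = 0.875). TRIP11, a cis-Golgi golgin that catches small vesicles by their membrane curvature, was at 41.1 and 44.7 CPM against 68 and 22.2 CPM (log2 fold change 0.07, SE 0.60, adjusted p = 0.968). Its fitted value near 0 averaged a 1.58-fold higher and a 1.94-fold lower library. Whether the 2 GORASP genes differ in response was not tested.

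Of the 3 golgins of the cisternal rims, TMF1 was higher in both shGOLM1 libraries, and the others overlapped. TMF1, which binds the GTPase RAB6, was at 31.3 and 39.9 CPM in shscramble and 40.6 and 111 CPM in shGOLM1 (log2 fold change 1.09, SE 0.57, adjusted p = 0.489). In replicate 1 it exceeded the higher control by less than the controls differed from each other. An antisense gene, AC109587.1, overlaps 7.72% of the exonic bases of TMF1 and had 15 to 21 counts in 3 libraries and 162 in shGOLM1 replicate 2, beside 2524 counts of TMF1 there. CUX1, whose locus encodes both a homeodomain transcription factor and the golgin CASP, was at 54.5 and 57.9 CPM against 80.7 and 42.8 CPM (log2 fold change 0.14, SE 0.41, adjusted p = 0.901). Counts per gene do not separate these products. GOLGA5 was at 39.8 and 38.3 CPM against 34.2 and 40.2 CPM, the narrowest span of the 3 rim golgins (log2 fold change -0.07, SE 0.29, adjusted p = 0.933).

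On the trans face, 0 of 8 members were higher in both shGOLM1 libraries (25.2% of all tested genes) and 3 were lower (26.5%), a share near that of all genes, with a median log2 fold change of -0.01. Golgins with a GRIP domain sit there, some of them held by the small GTPase ARL1, which is in turn recruited through ARFRP1 and its membrane receptor SYS1. Of the 4 GRIP golgins, GOLGA4 was lower in both libraries, at 155 and 166 CPM in shscramble and 106 and 77.9 CPM in shGOLM1 (log2 fold change -0.80, SE 0.31, adjusted p = 0.424). GCC1 was at 29.3 CPM in both controls and at 38.5 and 22.1 CPM in shGOLM1, on either side of them (log2 fold change 0.05, SE 0.39, adjusted p = 0.968). The other 2, GOLGA1 at 17.2 and 21.8 against 19.4 and 25.2 CPM and GCC2 at 47.6 and 52.1 against 46.5 and 48.8 CPM, had shGOLM1 values within or near the control range. Upstream of ARL1, ARFRP1 was at 24.5 and 22.6 CPM in shscramble against 15.7 and 7.34 CPM in shGOLM1 (log2 fold change -1.03, SE 0.49, adjusted p = 0.472). Its receptor SYS1 was also lower in both libraries, at 21.4 and 20.4 against 16.9 and 13.6 CPM (log2 fold change -0.45, SE 0.33, adjusted p = 0.595). ARL1 itself was at 36.3 and 34.6 CPM against 31.7 and 45.9 CPM, which spans the controls (log2 fold change 0.13, SE 0.33, adjusted p = 0.882). TGOLN2, a cargo receptor that cycles from the trans-Golgi network, was at 177 and 199 CPM against 196 and 248 CPM (log2 fold change 0.24, SE 0.30, adjusted p = 0.742).

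Among the other 6 Golgi-associated genes, TMEM165 and GOLIM4 were lower in both shGOLM1 libraries. TMEM165 (chromosome 4, 55395957 to 55453397), a membrane protein that supplies the Golgi with manganese, was at 143 and 127 CPM in shscramble and 81.3 and 31.5 CPM in shGOLM1, 1.66-fold and 4.28-fold below the shscramble mean. Its log2 fold change was -1.26 (SE 0.53, adjusted p = 0.445). GOLIM4, a membrane protein that cycles between Golgi and endosomes, followed the same order, at 118 and 120 CPM against 88.3 and 47.7 CPM (log2 fold change -0.81, SE 0.40, adjusted p = 0.481). Both lay farther from the controls in replicate 2. GOLGA3, a golgin of the Golgi membrane, lay on the other side, at 83.9 and 88.6 CPM against 155 and 113 CPM (log2 fold change 0.64, SE 0.31, adjusted p = 0.474).

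GOLPH3 binds phosphatidylinositol 4-phosphate and retains glycosylation enzymes, and GOLPH3L is its paralog. GOLPH3L was at 38.6 and 34.6 CPM in shscramble against 51 and 55.7 CPM in shGOLM1, a near-equal difference in both libraries (log2 fold change 0.54, SE 0.28, adjusted p = 0.489). GOLPH3 was at 185 and 179 CPM against 205 and 124 CPM, above the controls in replicate 1 and below them in replicate 2 (log2 fold change -0.15, SE 0.36, adjusted p = 0.877). Per kilobase of gene length, GOLPH3 stayed the more abundant of the pair in every library, at 43.1 to 71.5 in the authors' FPKM against 10.3 to 16.2 for GOLPH3L. GOLGA7, a partner of a palmitoyltransferase, was at 41.7 and 39.1 CPM against 32.7 and 70.3 CPM (log2 fold change 0.35, SE 0.46, adjusted p = 0.755).

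The 8 COG subunits split in shGOLM1 replicate 2 and stayed close to the controls in replicate 1. In replicate 2 the transcripts of COG3, COG5 and COG7 were 2.74-fold, 2.54-fold and 2.77-fold above the shscramble mean, while COG2 was 6.52-fold and COG8 9.89-fold below it. Differences of this size were common in that library. Of 14166 tested genes, 3343 lay more than 1 in log2 CPM above the shscramble mean and 3552 more than 1 below. In replicate 1 these counts were 1939 and 823. In replicate 1 every subunit lay between -0.38 (COG2) and 0.28 (COG4) in log2 CPM from the shscramble mean. The median log2 fold change of the complex was 0.42, and it was 0.06 without shGOLM1 replicate 2. In replicate 2 alone edgeR called 5 subunits higher and 3 lower, where 33.3% and 34.1% of all genes were called. In replicate 1 alone it called 0 higher and 1, COG2, lower, where 20.4% and 24.1% were. No subunit passed with all 4 libraries, where adjusted p ran from 0.539 to 0.997.

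COG1 was at 46.1 and 45.6 CPM in shscramble and 53.1 and 38.3 CPM in shGOLM1, on either side of the controls (log2 fold change -0.004, SE 0.32, adjusted p = 0.997). COG2 (chromosome 1, 230642489 to 230693982) was at 100 CPM in both controls and at 76.8 and 15.4 CPM in shGOLM1, the only subunit lower in both libraries (log2 fold change -1.12, SE 0.80, adjusted p = 0.584). For COG3 the values were 24.7 and 26.3 CPM against 25 and 70 CPM, so that only replicate 2 left the control range (log2 fold change 0.90, SE 0.57, adjusted p = 0.55). COG4, the last subunit of lobe A, was above the controls in both libraries, 1.22-fold and 1.62-fold over their mean, at 17.2 and 16.8 against 20.7 and 27.5 CPM (log2 fold change 0.50, SE 0.34, adjusted p = 0.565).

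In lobe B, COG5 was at 29 and 28.4 CPM against 29.8 and 72.8 CPM (log2 fold change 0.84, SE 0.51, adjusted p = 0.539). HBP1, which overlaps 11.5% of the exonic bases of COG5 on the opposite strand, had 338 to 405 counts in 3 libraries and 2194 in shGOLM1 replicate 2, beside 1658 counts of COG5 there. Whether the authors counted by strand was not stated, and the share of HBP1 reads in the COG5 value was not tested. COG6 was at 26.5 and 29.7 CPM against 30.2 and 40.5 CPM, and its replicate 1 lay at the upper control (log2 fold change 0.33, SE 0.32, adjusted p = 0.675). COG7 was at 16 and 19.9 CPM against 14.9 and 49.6 CPM, below the controls in replicate 1 and above them in replicate 2 (log2 fold change 0.85, SE 0.65, adjusted p = 0.61). COG8 was at 17.7 and 19.7 CPM against 22 and 1.89 CPM (log2 fold change -0.64, SE 1.12, adjusted p = 0.819).

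**Figure D3:**
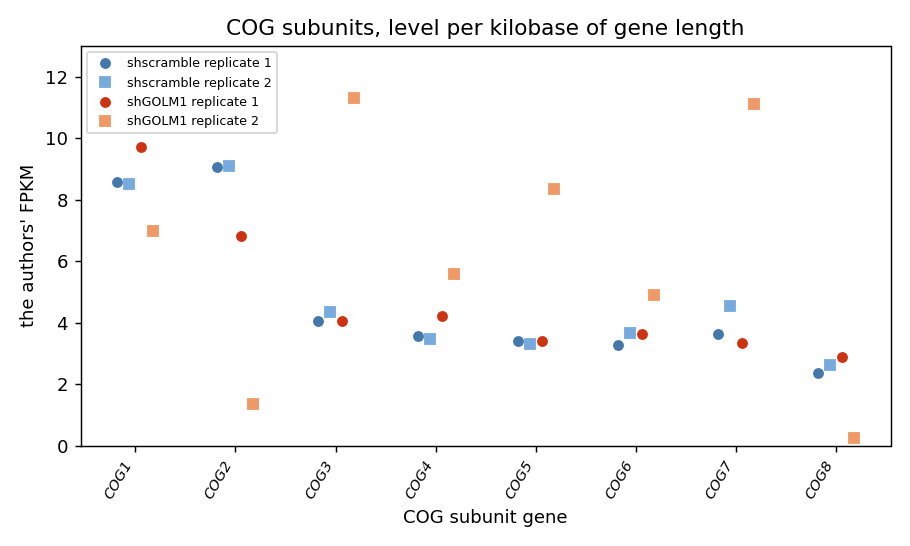
The authors' FPKM of the 8 COG subunits in each library, 1 point per library. In shscramble COG2 and COG1 stand highest; in shGOLM1 replicate 2 COG3 (11.3) and COG7 (11.1) are highest and COG8 (0.246) lowest.

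Per kilobase of gene length, the order of the subunits differed between libraries. In the authors' FPKM for shscramble replicates 1 and 2, COG2 was at 9.05 and 9.09 and COG1 at 8.58 and 8.49, well above COG3 at 4.07 and 4.33 and COG7 at 3.65 and 4.54. COG4, COG5 and COG6 lay between 3.26 and 3.65. COG4 (3.56 and 3.47) was slightly above COG5 (3.39 and 3.32), while COG6 (3.26 and 3.65) spanned both and could not be ordered. COG8 was lowest, at 2.35 and 2.61. The gene length used counts all annotated exonic bases, 7450 for COG8 and 4343 for COG7, so this order rests on that annotation too. In shGOLM1 replicate 1 COG1 (9.72) and COG2 (6.82) were again the highest and COG8 (2.87) the lowest. In shGOLM1 replicate 2 COG2 (1.36) stood next to COG8 (0.246) at the bottom, and COG3, COG7 and COG5 (8.35) stood at the top. In RNA from many cells, fewer cells with a transcript and less of it per cell cannot be told apart.

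COG8 (chromosome 16, 69320140 to 69339667) had 577 and 654 counts in shscramble, 762 in shGOLM1 replicate 1 and 43 in replicate 2. Counting every annotated transcript, its exons overlap those of PDF on the same strand (7.5% of the exonic bases of COG8) and those of NIP7 (12.8%) and VPS4A (16.7%) on the other strand. In RefSeq the listed start of NIP7 lies 208 bases from that of COG8 and the genes run apart, so the COG8 sequence printed above shares 293 of its bases with the promoter window of NIP7. NIP7, a ribosome biogenesis factor, was at 119 and 112 CPM in shscramble against 59 and 9.97 CPM in shGOLM1. PDF, a mitochondrial peptide deformylase, was at 15.9 and 13.4 CPM against 7.93 and 1.32 CPM, and VPS4A, an ATPase of membrane scission, at 30.1 and 31.2 CPM against 29.1 and 13.5 CPM. In replicate 2, NIP7 and PDF were thus 11.6-fold and 11.1-fold below the shscramble mean, close to the 9.89-fold of COG8, while in replicate 1 both were lower and COG8 was not. Without strand information, reads in the shared exons cannot be told apart. These 3 neighbours were chosen after their values were seen.

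**Figure D4:**
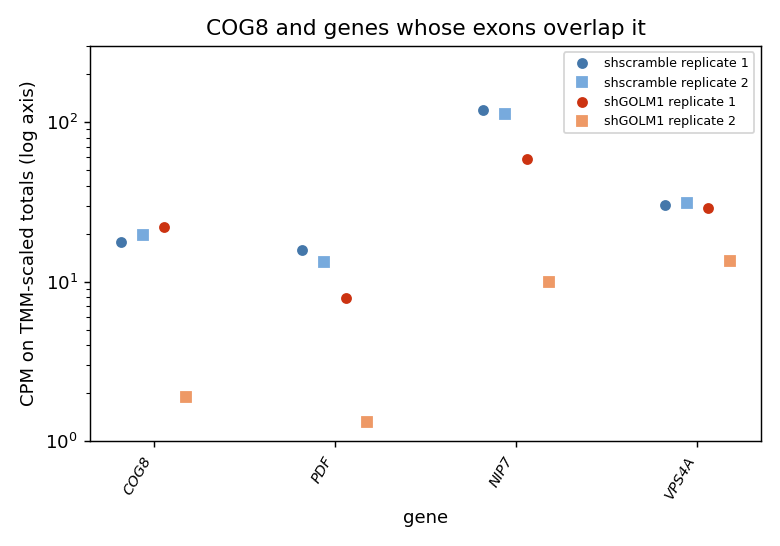
COG8 and 3 genes whose exons overlap it, in CPM on TMM-scaled totals (log axis), 1 point per library. All 4 genes are lowest in shGOLM1 replicate 2, where COG8 is at 1.89 and PDF at 1.32 CPM.

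Over the set, 16 of the 33 members share exonic bases with another annotated gene. As a share of the member's own exonic bases, the largest overlap was that of COG1 with FAM104A on the opposite strand (21.7%), and FAM104A had 1269 to 1602 counts per library. GOLGA1 shares 14.7% of its exonic bases with SCAI on the same strand, which had 193 to 379 counts. GCC1 shares 8.22% with ARF5 on the opposite strand, which had 2251 to 3377 counts per library, against 503 to 1335 for GCC1. In replicate 1, GOLGB1, GOLGA3, TRIP11 and CUX1, with 10372 to 17789 exonic bases each, were 4 of the 5 members farthest above the shscramble mean. The other members in that range of length lay below it, namely GOLGA4 (-0.59 in log2 CPM), COG2 (-0.38) and GCC2 (-0.10). Across the 33 members, Spearman's rho between gene length and the log2 difference from shscramble was 0.05 in replicate 1 and -0.29 in replicate 2, against 0.18 and -0.08 across all tested genes. Genes are not independent replicates, and those of a library share its depth and RNA.

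A list of 37 other genes of Golgi tethering and structure was described in the same way, and 36 of them passed the filter. With all 4 libraries 0 of 36 passed edgeR's test, and 6 had an unadjusted p under 0.05, 4 higher and 2 lower, against 8.2% and 3.58% of all tested genes. Both shGOLM1 libraries lay above both controls for 12 of them and below for 12, where the shares of all tested genes were 25.2% and 26.5%, and their median log2 fold change was 0.24. The TRAPP complexes, which tether vesicles and activate RAB1, had 8 of 14 subunits lower (26.5% of all tested genes) and 3 higher (25.2%), with a median of -0.42. TRAPPC3, a core subunit of TRAPP, was at 44.7 and 42.1 CPM in shscramble and 23.2 and 10.5 CPM in shGOLM1 (log2 fold change -1.36, SE 0.48, adjusted p = 0.421). TRAPPC8 was lower too, at 60.2 and 70 against 40.4 and 26.8 CPM (log2 fold change -0.95, SE 0.35, adjusted p = 0.421). TRAPPC6A went the other way from a low level, at 2.54 and 2.59 against 6.52 and 13.6 CPM (log2 fold change 1.97, SE 0.55, adjusted p = 0.42). Of the 7 ARF GTPases and exchange factors, 4 were higher (25.2% of all tested genes) and 0 lower (26.5%). GBF1, the exchange factor that activates ARF1 at the cis-Golgi, was at 123 and 147 against 218 and 346 CPM (log2 fold change 1.07, SE 0.37, adjusted p = 0.42). The GARP complex, which tethers vesicles from endosomes, had 2 of 4 subunits lower (26.5% of all tested genes) and 1 higher (25.2%), with a median of -0.56. TMEM115, a Golgi membrane protein that binds COG, was 9.73-fold below the shscramble mean in replicate 2, at 27.6 and 24.6 CPM in shscramble against 28.6 and 2.68 CPM in shGOLM1. It was chosen after its values were seen.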

How the data were processed

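RNA was extracted with an RNeasy kit and libraries were made with a SMARTER mRNA-seq kit, per the labels' protocols. Neither the aligner and counter nor their strand setting is given in the sources used here. Builds named in the submitters' processing notes are GRCm38 and mm10, yet all 58735 gene identifiers and positions equal those of GENCODE 29 on GRCh38. Deposited counts are unnormalized whole reads per gene (column names and values). Single genes were ordered by level only in FPKM as the authors deposited it. The authors' mean signal per group was not used. The deposited columns of log2 fold change and p-value name no tool. For members, the log2 fold changes there nearly equal those of DESeq2 run here, such as 1.38 in both for GOLGA2. The authors' calls and those of DESeq2 are therefore not independent. From these columns only the adjusted p-value was used in the results above.

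Counts were tested with edgeR 4.0.16 (limma 3.58.1, R 4.3.3): TMM, filterByExpr, quasi-likelihood test, two-sided, Benjamini-Hochberg over 14166 genes, threshold 0.05. The SE is the size of the log2 fold change divided by the square root of F. Log2 CPM used a prior count of 2. DESeq2 1.42.0, limma-voom, other scalings and filters, the replicate block and each library left out were alternatives, and the fit was tested on simulated data. The simulation gave both groups an equal spread, so it does not cover the unequal spread of these groups. Chi-square per gene between the controls was 13.8, above sampling noise, and both were kept as separate samples. Between the shGOLM1 libraries it was 508. The members and lists were chosen with earlier results of these data known. Named genes: all 33 members; with full values, up to 4 of each role group with the smallest unadjusted p (mean level 1 CPM or more), and every member that any alternative called; from the further list, the 2 with the smallest p in each direction at that level. Promoters were matched by symbol to RefSeq.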

Additional observations from a re-analysis of the deposited data

How the results depend on the processing

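Members were called only when a shGOLM1 library was left out, and 0 were called under every other alternative run (unscaled totals, DESeq2-type factors, no filter or one of 5 CPM in 2 libraries, DESeq2, limma-voom, the replicate block, either control left out). Leaving out each library gave 0 to 30 members called and 20 to 10290 genes called over all genes. All genes called were 192 without a filter and 533 in DESeq2. The replicate number as a block gave 203 genes. The numbers were not taken to pair the libraries, since deviations of same-numbered libraries from their group means correlated at -0.0977. With all 4 libraries, the direction of the log2 fold change reversed only in COG1, GOLGA5, GCC2, GCC1 and TRIP11. COG1 was at 0.0078 with DESeq2-type factors and, with the 5 CPM filter, COG1 was at 0.11, GOLGA5 at 0.0469 and GCC2 at 0.0505. GCC1 was at -0.0212 without a filter and -0.0063 with the block, and TRIP11 at -0.14 with the block and -0.10 in limma-voom. With 1 library left out, the log2 fold change ran from -1.001 to 0.65 in TRIP11, -0.44 to 0.51 in CUX1, -0.46 to 0.38 in GCC1, -0.0288 to 0.32 in GOLGA1, -0.21 to 0.36 in GORASP2, -0.18 to 0.33 in ARL1, -0.32 to 0.75 in GOLGA7, -0.60 to 0.16 in GOLPH3, -0.31 to 0.20 in COG1, -0.0458 to 1.41 in COG3, -0.28 to 1.42 in COG7 and -3.35 to 0.22 in COG8. The cause was not tested. At this depth 3 counts are 0.0864 to 0.132 CPM, which covers counting error only, and every member lay above that in every library.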
